A study of Mus musculus with 22 samples.

Results

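The subject here is the difference between 2 knockout effects: the change that loss of Vldlr, the very low density lipoprotein receptor, was associated with in mouse retinal microglia at postnatal day 31 (P31), minus the same change at postnatal day 17 (P17). It was taken as (P31 KO minus P31 control) minus (P17 KO minus P17 control), so all 4 library groups and all 22 of the 22 RNA sequencing libraries of the series entered it, and 21 entered a repeat without P17 KO library 1. There were 7 control and 5 KO libraries at P17, and 5 of each at P31, where KO stands for the genotype the labels spell vldlrKO or vldrlKO and control is given with no strain or allele. All cells were sorted as CD45low, CD11b+, Ly6C-, Ly6G- and Tom+, so every group carried the feature that the labels call Tom, and what drives it is not stated in the labels. Whether the libraries are separate animals, or how many animals each pooled, is not stated, and the p-values below reflect library-to-library spread, which may be technical. The series title places the study in a disease of retinal vessels, angiomatous proliferation, that mice lacking Vldlr develop, and the comparison asks whether microglia of such mice departed from controls differently at the later age.

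Microglia are the resident macrophages of the retina. They divide in the young tissue, settle into a ramified surveying state as it matures, and can divide again or take on a phagocytic, lipid-handling state around injury or diseased vessels. A dividing cell first loads the MCM helicase ring onto its replication origins and copies its DNA under the control of E2F factors. Cyclin B and the kinetochore proteins then carry it through mitosis, and their genes are commonly regulated through CHR and CCAAT elements in the promoter.

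Libraries held 23.9 to 54.0 M reads. Values are CPM, reads per 1 M reads of the library, after TMM scaling, which sets aside the most abundant and most changed genes when it compares libraries, and differences are on the log2(CPM + 0.5) scale, which understates changes of low genes. Microglial markers were high in every library: P2ry12 lay between 6650 and 17300 CPM, Tmem119 between 1510 and 5370 and Cx3cr1 between 2010 and 4540. P17 KO library 1 stood apart, with 34.5% of its reads in its 10 most abundant genes against 13.2% to 18.1% elsewhere, and a TMM size factor of 0.424 relative to the geometric mean where the deposited factor was 0.814. Sex-linked transcripts were unevenly spread: summed Y-linked levels were 64.4 to 181 CPM in the P17 controls, 47.5 and 54.2 in P17 KO libraries 1 and 4 and 0 in the other P17 KO libraries, 225 and 123 in P31 controls 1 and 5 and 0 in the other P31 controls, and at most 0.0278 in the P31 KO. Xist was also present in controls 4 and 6 of P17, at 66.7 and 132 CPM, and in libraries 1 and 4 of the P17 KO, at 171 and 69.2 CPM, so these 4 libraries carried both kinds of sex-linked transcript. With the mean log2 level of the Y-linked genes as a covariate, the 5 genes described below were still called. Every P17 control was high in these transcripts and every P31 KO library was at or near 0. Sex and the difference between KO effects therefore cannot be told apart by this fit.

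Vldlr itself was read first. In the P17 controls it ranged from 1.59 to 23.9 CPM with a median of 12.8, and in P17 KO libraries 1 to 5 it was 0, 0.504, 0, 0.5 and 0. In P31 controls 1 to 5 it was 24.4, 0, 0, 0 and 0, and in P31 KO libraries 1 to 5 it was 0, 0.0237, 1.64, 0.0278 and 0.367. The P17 groups did not overlap, whereas at P31 only control 1 held more than the KO libraries, so Vldlr reads checked the genotype labels at P17 and not at P31. The KO effect on Vldlr was -3.51 ± 0.84 (SE) at P17 and -0.52 ± 0.91 at P31, and their difference of 2.99 ± 1.24 did not pass the test (limma adjusted p = 0.509).

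For 5 of 12733 genes tested, 0.0393% of them, the P31 and P17 effects of the KO were unequal at an adjusted p under 0.05 (limma, Benjamini-Hochberg over all genes tested). The effect at P31 was higher than at P17 for Mcm6 and Dtl, which act in DNA replication, for Brca1, which acts in homologous recombination, and for Rims2, a presynaptic scaffold, and it was lower for Ets1, a transcription factor, which makes 4 higher (0.0314%) and 1 lower (0.00785%). The number depended strongly on the test: DESeq2 called 176 genes, 109 higher and 67 lower, which held 3 of these 5, and edgeR's quasi-likelihood test called 3, which held 2 of them. Without P17 KO library 1 the same 5 genes were called among 9 of 12661, 0.0711%, and Fabp5, Fam102b, Serinc3 and Rsrc2 joined them, giving 5 higher (0.0395%) and 4 lower (0.0316%). At an unadjusted p under 0.05 the counts were 1110 genes (8.72%) with all libraries and 1207 (9.53%) without that library. The KO effect itself was called for 201 genes (1.58%) at P17 and 394 (3.09%) at P31, or 221 (1.75%) and 915 (7.23%) without P17 KO library 1.

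In the limma fit, few genes called at 1 age had a called difference between ages. Of 270 genes called at P31 and not at P17, 4 had a called difference, and without P17 KO library 1 it was 8 of 757. Of 124 genes called at both ages, 88 were higher and 36 lower in the KO at both, 0 had opposite signs, and Ets1 was the one with a called difference. Without P17 KO library 1 its P17 effect was no longer called (limma adjusted p = 0.103), and Serinc3 was the one gene called at both ages with a called difference. The 95% interval of the difference had a median half-width of 1.27 on the log2 scale, or 1.12 without P17 KO library 1. It lay within 1 log2 unit of 0 for 10.7% of genes, or 24.6% without that library, so for most genes an equal effect at both ages and a 2-fold change of it were not separated.

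**Figure D1:**
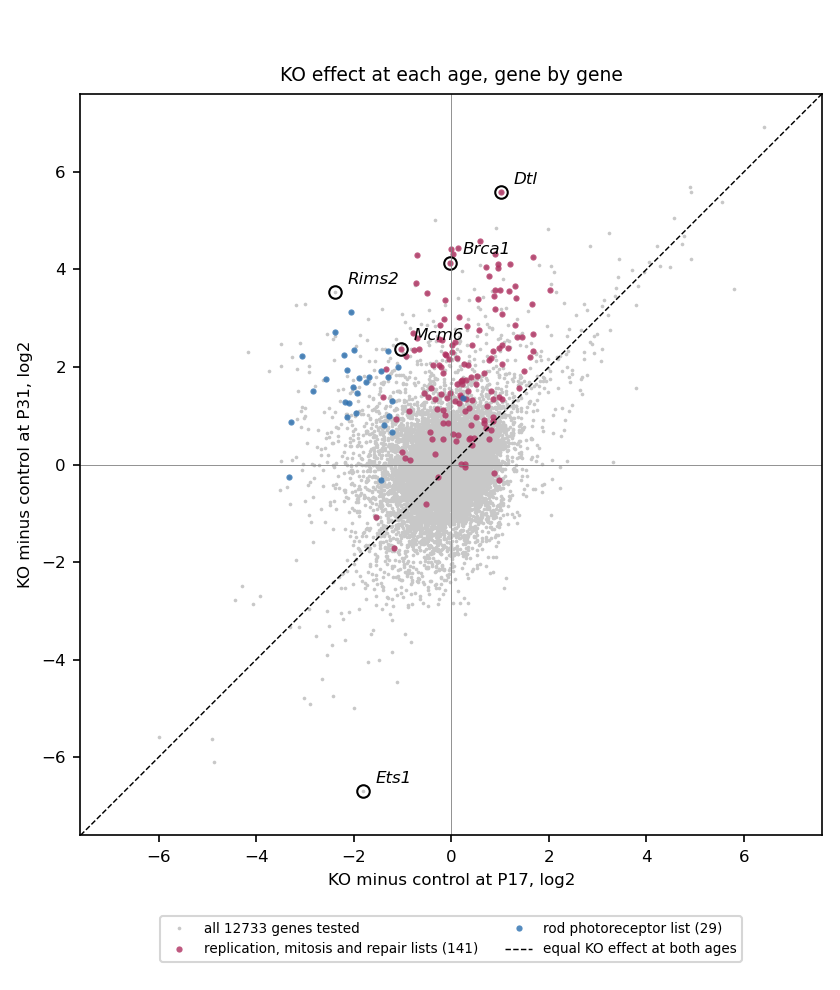
KO minus control on the log2(CPM + 0.5) scale at P17 (x axis) and at P31 (y axis), 1 point per gene tested, with the replication, mitosis and repair lists in red, the rod list in blue and the 5 called genes circled. Genes on the dashed line had equal effects at both ages; Mcm6, Dtl, Brca1 and Rims2 lie above it and Ets1 below it.

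The promoters of the cell cycle genes are shown first because 3 of the 5 called genes act in that process. Each line is the 250 bases before the RefSeq start of the gene on GRCm38.p6 (the mm10 build), 5′ to 3′ on the gene's strand, with matches to 3 motifs on either strand in capitals. The motifs were the E2F site (TTTCCCGC, TTTCGCGC, TTTGCCGC or TTTGGCGC), the CHR element (TTTGAA or TTCGAA) and the CCAAT box. Mcm6 lies at chr1:128359706-128359955 on the minus strand, Dtl at chr1:191575545-191575794 on the minus strand, Brca1 at chr11:101551956-101552205 on the minus strand and Ccnb2, the mitotic cyclin described below, at chr9:70421555-70421804 on the minus strand.
Mcm6: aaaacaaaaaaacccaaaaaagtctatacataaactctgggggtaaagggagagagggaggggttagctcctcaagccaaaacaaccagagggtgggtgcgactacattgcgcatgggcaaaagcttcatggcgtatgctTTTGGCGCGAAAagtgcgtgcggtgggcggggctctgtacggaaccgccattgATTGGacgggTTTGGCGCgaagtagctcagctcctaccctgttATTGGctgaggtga
Dtl: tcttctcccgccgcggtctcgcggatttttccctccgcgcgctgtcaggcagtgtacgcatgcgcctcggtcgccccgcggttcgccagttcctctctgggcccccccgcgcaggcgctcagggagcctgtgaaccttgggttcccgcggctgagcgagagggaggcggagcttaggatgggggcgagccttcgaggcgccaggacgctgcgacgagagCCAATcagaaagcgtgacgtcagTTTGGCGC
Brca1: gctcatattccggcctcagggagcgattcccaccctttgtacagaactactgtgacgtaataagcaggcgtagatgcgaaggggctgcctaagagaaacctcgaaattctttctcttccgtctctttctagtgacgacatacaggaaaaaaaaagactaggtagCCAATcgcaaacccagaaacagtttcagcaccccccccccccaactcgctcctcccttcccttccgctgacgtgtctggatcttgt
Ccnb2: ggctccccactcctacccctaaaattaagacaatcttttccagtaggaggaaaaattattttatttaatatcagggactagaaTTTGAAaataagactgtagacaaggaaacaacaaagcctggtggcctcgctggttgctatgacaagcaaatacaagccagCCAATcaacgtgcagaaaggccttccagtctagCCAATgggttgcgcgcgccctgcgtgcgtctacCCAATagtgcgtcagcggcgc

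Counted from the start, Mcm6 held E2F letters at -110, -106 and -47, where the first 2 matches overlap, and CCAAT boxes at -57 and -14. Dtl held 1 E2F match at -8 and a CCAAT box at -31, Brca1 a CCAAT box at -86, and Ccnb2 a CHR match at -167 and CCAAT boxes at -87, -54 and -21. The window of Prim1, a replication gene described below that came nearer to a call than Ccnb2, is not printed. It held a CCAAT box at -9 and no E2F or CHR match. Of 9541 tested genes with a RefSeq window, 3.97% held the E2F letters, 14.9% the CHR letters and 40.9% the CCAAT box. Among 38 replication genes with a window the shares were 28.9%, 21.1% and 65.8%, among 56 mitosis genes 7.14%, 46.4% and 67.9%, and among 20 repair genes 5.0%, 0.0% and 60.0%. These are counts of letters and not of binding.

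Mcm6 (ENSMUSG00000026355, chr1:128331590-128359664, minus strand), a subunit of the replicative helicase, ranged from 21.3 to 68.7 CPM in the P17 controls with a median of 41.6. It stood at 11.1, 23.6, 24.2, 20.8 and 28.0 CPM in P17 KO libraries 1 to 5 and at 18.1, 20.7, 27.5, 15.5 and 25 in P31 controls 1 to 5. P31 KO libraries 1 to 5 held 153, 108, 112, 149 and 59.7. The P31 KO libraries were all above all P31 control and P17 KO libraries, and the lowest of them lay within the P17 control range. The KO effect was -1.04 ± 0.30 (SE, limma adjusted p = 0.0843) at P17 and 2.37 ± 0.32 (adjusted p = 3.42e-05) at P31. The difference was 3.41 ± 0.44 (limma adjusted p = 0.000437), or 3.20 ± 0.40 without P17 KO library 1 (adjusted p = 0.000301).

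Dtl (ENSMUSG00000037474, chr1:191537356-191575544, minus strand) encodes the substrate receptor of a ubiquitin ligase that removes the licensing factor Cdt1 during DNA synthesis. It ranged from 0 to 2.51 CPM in the P17 controls with a median of 1.4, and was 3.3, 5.75, 2.68, 2.65 and 1.26 in the P17 KO libraries. P31 controls 1 to 5 held 0, 0.0177, 4.25, 0 and 0.0288 CPM, and P31 KO libraries 1 to 5 held 34.2, 27.2, 28.8, 67.4 and 42.1. Every P31 KO library was above every other library of the series, and control 3 was high among the P31 controls. The difference was 4.57 ± 0.83 (SE, limma adjusted p = 0.0273), made of 1.01 ± 0.56 at P17 and 5.58 ± 0.61 at P31. It was the least stable of the 5 calls: 6 of 16 alternative settings and 8 of the 22 fits that left out 1 library kept it, with adjusted p-values up to 0.494.

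**Figure D2:**
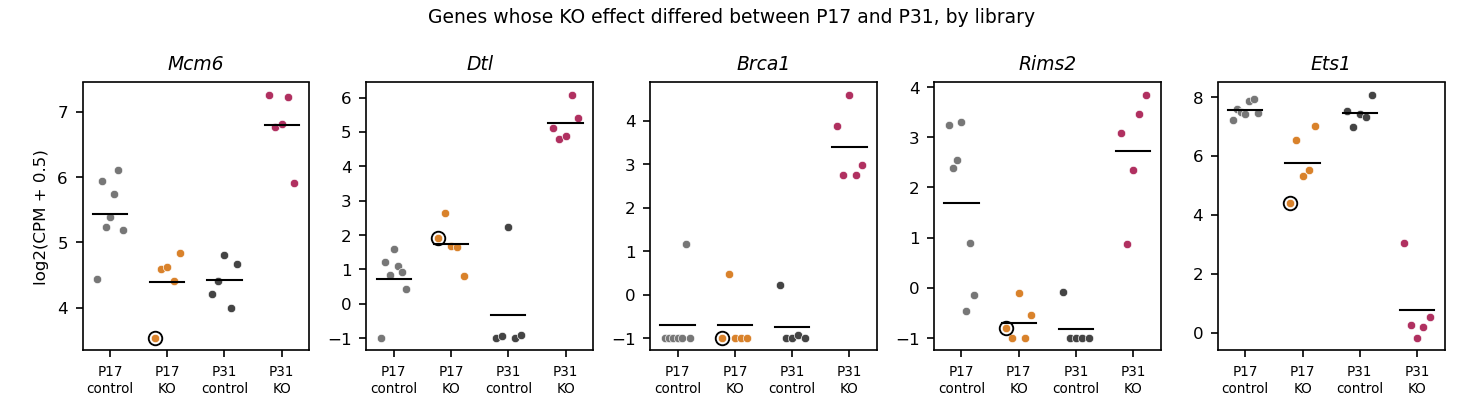
Level of each of the 5 called genes as log2(CPM + 0.5) in every library, by group; points are libraries, bars are group means and the ringed point is P17 KO library 1. Mcm6, Dtl and Brca1 are highest in the P31 KO, Rims2 is low in the P17 KO and P31 control libraries, and Ets1 is lowest in the P31 KO.

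The list of DNA replication and G1/S genes had 48 members tested. Of these 2, Mcm6 and Dtl, had a called difference, beside 0.0393% of all genes, and 46 did not pass. Above 0 lay 43, beside 49.8% of all genes, and 19 were higher at an unadjusted p under 0.05, beside 5.3%. The median difference was 1.24, against 0 over all genes tested, and it lay between 0.96 and 1.53 in every alternative run. The summed level of the list was 501 to 680 CPM in P17 controls, 598 to 718 in the P17 KO, 469 to 626 in P31 controls and 1260 to 1740 in the P31 KO, so the P31 KO libraries stood clear of the other 3 groups. In the KO effect at P31 itself, 12 members rose and 0 fell, where 1.74% of all genes rose. Without P17 KO library 1 the P31 effect rose for 25 members, beside 4.04% of all genes. At P17 0 members were called in either direction, where 1.58% of all genes were.

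All 6 subunits of the MCM ring had a difference above 0, beside 49.8% of all genes, and 5 did not pass. Mcm5, which forms the gate of the ring with Mcm2, ranged from 5.1 to 25.9 CPM in P17 controls with a median of 15, and was 0.808, 13.2, 13.5, 19.7 and 27.4 in the P17 KO. It was 8.99, 0, 12.1, 23.2 and 10.7 CPM in P31 controls and 86.6, 88.4, 89.1, 70.4 and 64.2 in the P31 KO, a difference of 4.02 ± 1.06 (SE, limma adjusted p = 0.271). The P31 KO libraries of Mcm5 were above all others, and P17 KO library 1 and P31 control 2 were low. The differences of Mcm2, Mcm3, Mcm4 and Mcm7 were 2.29, 1.67, 2.20 and 1.88, with limma adjusted p-values between 0.27 and 0.503. For Mcm2 and Mcm4 the P31 KO libraries lay above all P31 control and P17 KO libraries. For Mcm3 and Mcm7 they overlapped both groups. These subunits and the cyclins below were singled out after their values were seen.

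Prim1, the catalytic subunit of primase, was the replication gene nearest to a call. It ranged from 1.91 to 6.18 CPM in P17 controls with a median of 3.42, and stood at 0, 1.72, 6.06, 0.962 and 5.42 in the P17 KO, at 1.03, 3.79, 2.92, 0 and 0 in P31 controls and at 21.6, 16, 18.4, 16.2 and 19.4 in the P31 KO. The P31 KO libraries again lay above every other library, with a difference of 4.44 ± 0.90 (SE, limma adjusted p = 0.0762). Uhrf1, which carries DNA methylation through replication, was at 40.2, 24, 36.6, 45.4 and 23.9 CPM in the P31 KO and at most 12.2 in any other library, a difference of 4.42 ± 1.16 (adjusted p = 0.267). Cyclin A2 (Ccna2), which drives S phase, was at 18.9 to 68.7 CPM in the P31 KO and at most 9.52 elsewhere, a difference of 4.31 ± 1.19 (adjusted p = 0.28).

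Mitosis and kinetochore genes had no called difference among 67 tested, while 65 lay above 0, beside 49.8% of all genes. At an unadjusted p under 0.05, 30 were higher, beside 5.3% of all genes. In the alternatives 0 to 3 were called, 3 of them by DESeq2. Their median difference was 2.05, and between 1.35 and 3.63 in the alternatives. Summed levels were 416 to 584 CPM in P17 controls, 492 to 1020 in the P17 KO, 335 to 517 in P31 controls and 877 to 1550 in the P31 KO. The highest P17 KO value belonged to library 1, and the other 4 P17 KO libraries lay below every P31 KO library. In the KO effect at P31, 20 members rose and 1 fell, beside 1.74% and 1.35% of all genes, and at P17 0 were called, or 1 that fell without P17 KO library 1.

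Ccnb2, cyclin B2, ranged from 0.613 to 5.63 CPM in P17 controls with a median of 2.76, and was 5.29, 3.62, 4.39, 4.65 and 3.12 in the P17 KO. P31 controls 1 to 5 held 0.501, 0, 10.3, 0.0249 and 0.0576 CPM and P31 KO libraries 1 to 5 held 18.5, 39.0, 22.5, 17.3 and 40.2. All P31 KO libraries were above all others, and P31 control 3 was high among the controls. The difference was 4.0 ± 0.90 (SE, limma adjusted p = 0.176). Other mitotic genes were further from a call: Bub1b, a spindle checkpoint kinase, differed by 5.01 ± 1.26 (adjusted p = 0.247), Cenpa, the centromeric histone, by 3.43 ± 0.89 (adjusted p = 0.256) and Kif2c, a microtubule depolymerase, by 3.14 ± 0.83 (adjusted p = 0.27).

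Mki67, the usual marker of dividing cells, also singled out after its values were seen, was low and scattered. It ranged from 0.38 to 7.67 CPM in P17 controls with a median of 2.05, and was 0, 3.85, 0, 2.31 and 13.6 in the P17 KO, 7.1, 0, 0.43, 0.0497 and 0 across P31 controls and 4.54, 8.48, 14.1, 0.75 and 23.5 in the P31 KO. The groups overlapped and the difference of 3.10 ± 1.27 (SE) did not pass (limma adjusted p = 0.506).

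Brca1 (ENSMUSG00000017146, chr11:101488764-101551955, minus strand), which directs repair of broken and stalled replication forks, was close to absent outside the P31 KO. It was 0 CPM in all P17 controls but control 6, at 1.75, and 0 in all P17 KO libraries but library 2, at 0.889. P31 controls 1 to 5 held 0.668, 0, 0, 0.0249 and 0 CPM, and P31 KO libraries 1 to 5 held 14.2, 6.28, 23.8, 6.3 and 7.43. Every P31 KO library was above every other library. Outside the P31 KO only P17 control 6 reached 1 CPM, so Brca1 met the filter on low values through the group where it was high. The difference was 4.16 ± 0.71 (SE, limma adjusted p = 0.0138), made of -0.02 ± 0.48 at P17 and 4.14 ± 0.52 at P31, and 4.12 ± 0.74 without P17 KO library 1 (adjusted p = 0.0262). Tests that model counts did not call it, with adjusted p-values of 0.504 in edgeR's quasi-likelihood test and 0.534 in DESeq2.

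Among 26 tested genes of homologous recombination and Fanconi repair, Brca1 alone had a called difference, beside 0.0393% of all genes. Of the 26, 23 lay above 0, where 49.8% of all genes did, and the median was 0.94. At an unadjusted p under 0.05, 6 were higher, beside 5.3% of all genes. Without P17 KO library 1 it was 4, beside 5.2%. In the alternatives the median lay between 0.61, without P31 KO library 1, and 1.56, in voom, and edgeR, DESeq2 and voom called 0 of the 26. Brca2, which acts in homologous recombination with Brca1, was at 10.4, 16.8, 46.7, 11.4 and 7.61 CPM in the P31 KO, at 0 to 3.28 in P31 controls, at 1.13 to 5.58 in the P17 KO and at 0.252 to 6.37 in P17 controls, a difference of 2.51 ± 0.90 (SE, limma adjusted p = 0.421). Exons of Brca2, Ccna2, Mcm7, Cdkn1c, Wdfy1, Xpa, Fhit, Pla2g7, Syp, Pclo, P2ry12, Cx3cr1 and Serinc3 overlap an annotated gene on the opposite strand, and those of Pear1 and Spp1 one on the same strand. No source used here gives the strand setting of the counting, so reads of such pairs cannot be told apart.

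Inhibitors of the cycle and p53 targets formed a separate list. Of 24 tested, 0 had a called difference, 1 was lower at an unadjusted p under 0.05, beside 3.42% of all genes, and the median was 0.21. Gadd45g, a stress-induced growth inhibitor, ranged from 8.43 to 20.4 CPM in P17 controls with a median of 16.8, and was 119, 17.1, 34.2, 15.2 and 21.4 in the P17 KO, 16.4, 26.1, 20.4, 7.38 and 18.1 across P31 controls and 5.77, 9.95, 9.34, 0 and 5.59 in the P31 KO. P17 KO library 1 was far above the rest and the P31 KO libraries were low. The difference was -2.82 ± 0.87 (SE, limma adjusted p = 0.318). Cdkn1c, the inhibitor p57, differed by -1.17 ± 0.62 (adjusted p = 0.597). On the other side, Cdkn2c, the inhibitor p18, differed by 1.20 ± 0.64 (adjusted p = 0.612), or 1.64 ± 0.56 without P17 KO library 1 (adjusted p = 0.343). Trp53inp1, a p53 target, differed by 1.24 ± 0.74 (adjusted p = 0.666). Members thus lay on both sides, and 17 of 24 were above 0, beside 49.8% of all genes.

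**Figure D3:**
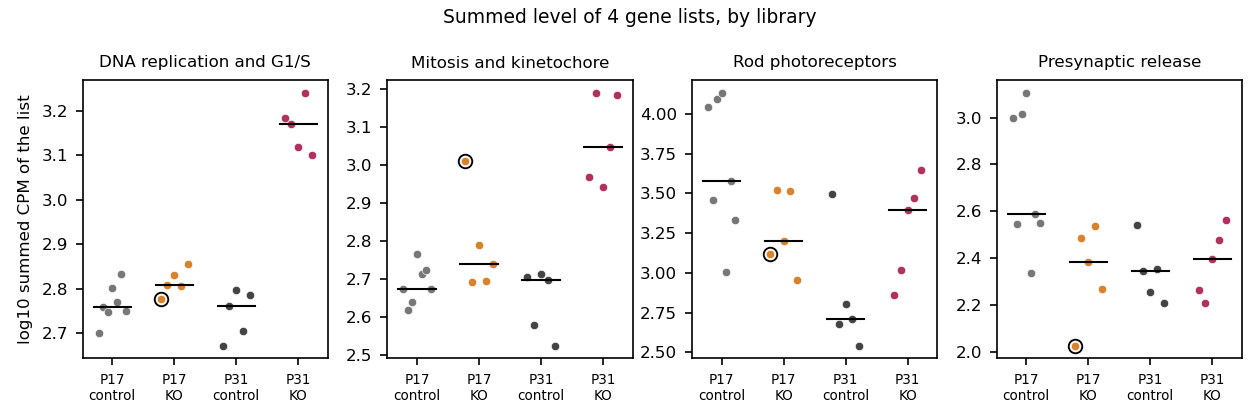
Summed CPM of 4 gene lists in each library, as log10, by group; points are libraries, bars are medians and the ringed point is P17 KO library 1. The replication sums of the P31 KO lie at 1260 to 1740 CPM above all other libraries, while rod and presynaptic sums overlap between groups and are highest in P17 controls 1, 3 and 4.

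Rims2 (ENSMUSG00000037386, chr15:39198261-39684372, plus strand) encodes a scaffold of the presynaptic active zone, which photoreceptors hold at their ribbon synapses. P17 controls 1 to 7 ranged from 0.228 to 9.42 CPM with a median of 4.76, and P17 KO libraries 1 to 5 held 0.0734, 0, 0.427, 0 and 0.186. P31 controls held 0.445, 0, 0, 0 and 0, and P31 KO libraries 8.0, 1.33, 4.57, 10.6 and 13.9. The order of the genotypes thus turned: the KO was lower at P17, where controls 5 and 7 overlapped the KO, and higher at P31 with no overlap. The KO effect was -2.37 ± 0.64 (SE, limma adjusted p = 0.0577) at P17 and 3.54 ± 0.69 (adjusted p = 0.00254) at P31, a difference of 5.91 ± 0.94 (adjusted p = 0.00584).

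Rod photoreceptor genes had a median KO effect of -1.95 at P17 and of 1.59 at P31. Rods are the light-sensing neurons that make up most of the retina, and a sorted microglial sample can carry their RNA. Of 29 rod genes tested 0 had a called difference, while all 29 lay above 0, as did 49.8% of all genes, 25 were higher at an unadjusted p under 0.05 beside 5.3% of all genes, and the median was 3.44. Their summed level was 1020 to 13600 CPM in P17 controls, 908 to 3330 in the P17 KO, 349 to 3150 in P31 controls and 730 to 4460 in the P31 KO, so the groups overlapped at both ages. The turn was also seen in cone genes. The 8 cone photoreceptor genes tested had a median KO effect of -2.07 at P17 and 0.55 at P31. Their median difference was 2.66, with 7 above 0 and 0 called. The 9 genes tested of the retinal pigment epithelium had a median KO effect of -1.13 at P17 and -0.04 at P31, which neared 0 without turning. Their median difference was 1.44, with 7 above 0 and 0 called. The 15 genes tested of bipolar, amacrine, horizontal and ganglion cells had a median KO effect of -0.49 at P17 and -0.07 at P31. Their median difference was 0.01, with 8 above 0 and 0 called. In such samples fewer cells of a type and less RNA per cell cannot be told apart.

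Pde6a, a subunit of the rod phosphodiesterase, differed by 5.27 ± 1.36 (SE, limma adjusted p = 0.256), Guca1b, a guanylate cyclase activator, by 4.16 ± 1.03 (adjusted p = 0.243) and Gucy2f, a photoreceptor cyclase, by 4.35 ± 1.13 (adjusted p = 0.259). Impg1, a proteoglycan of the matrix around photoreceptors, differed by 6.29 ± 1.5 (adjusted p = 0.197).

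With the mean rod level of each library as a covariate, 1 gene, Mcm6, was called, and the Rims2 difference was 4.23 (limma adjusted p = 0.419). Without P17 controls 1, 3 and 4, the libraries with the highest rod sums, 2 genes (Mcm6 and Ets1) were called and the Rims2 difference was 4.90 (adjusted p = 0.0545). Their part in the differences was not tested beyond these fits. Dtl and Brca1 had differences of 4.38 and 3.78 with the covariate and 4.75 and 4.38 without those controls, at the same adjusted p-values of 0.419 and 0.0545.

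Of 25 tested genes of presynaptic release, Rims2 alone was called, beside 0.0393% of all genes. Of the 25, 21 lay above 0, where 49.8% of all genes did, and the median was 1.49. At an unadjusted p under 0.05, 10 were higher, beside 5.3% of all genes. Without P17 KO library 1, 8 were higher at that level, beside 5.2%, and the median was 1.27. With all libraries and the rod covariate, 0 were called, 14 lay above 0 and the median was 0.28. Without P17 controls 1, 3 and 4, 0 of 23 were called and the median was 0.88. Syt1, the calcium sensor of vesicle release, had 1.2 to 71.9 CPM in P17 controls with a median of 17, and 0, 8.18, 0.0389, 1.46 and 2.11 in the P17 KO. It had 9.85, 0, 0.0904, 0.0497 and 0.0288 CPM in P31 controls and 0.227, 3.1, 8.86, 24.5 and 7.22 in the P31 KO. Libraries overlapped at both ages and the difference was 5.97 ± 1.44 (SE, limma adjusted p = 0.197). Syp, a vesicle membrane protein, differed by 3.73 ± 1.24 (adjusted p = 0.368), and Pclo, an active zone scaffold, by 2.76 ± 0.94 (adjusted p = 0.388).

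Ets1 (ENSMUSG00000032035, chr9:32636221-32757820, plus strand), the founding member of the ETS family of transcription factors, was lower in the KO at both ages and more so at P31. P17 controls ranged from 149 to 241 CPM with a median of 178, and P17 KO libraries 1 to 5 held 20.8, 92.6, 39.0, 45.6 and 130. P31 controls held 185, 125, 173, 159 and 270, and P31 KO libraries 7.84, 0.711, 0.379, 0.639 and 0.945. KO and control libraries did not overlap at either age, and the P31 KO libraries lay below the P17 KO libraries, with library 1 high among them. The KO effect was -1.80 ± 0.44 (SE, limma adjusted p = 0.0292) at P17, or -1.46 ± 0.43 without P17 KO library 1 (adjusted p = 0.103), and -6.69 ± 0.47 (adjusted p = 1.64e-09) at P31. The difference was -4.89 ± 0.65 (adjusted p = 0.000437), or -5.24 ± 0.61 without P17 KO library 1 (adjusted p = 0.000207). Etv1, another ETS factor, had 20.6, 13.9, 12, 13.7 and 8.53 CPM in the P31 KO, 20.1 to 41.0 in P31 controls, 26.1 to 44.1 in the P17 KO and 14.7 to 29.5 in P17 controls, and its difference of -1.66 ± 0.40 did not pass (adjusted p = 0.197).

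The 4 genes that were called when P17 KO library 1 was left out, and not with all libraries, follow. Fabp5, an intracellular fatty acid carrier, ranged from 4.91 to 11.6 CPM in P17 controls with a median of 7.82 and was 61.4, 13, 13, 14.8 and 7.16 in the P17 KO. P31 controls held 2.87, 2.6, 2.33, 3.51 and 14.5 CPM and P31 KO libraries 45.4, 58.8, 94.7, 34.8 and 99.6. P17 KO library 1 was the high value of its group, at the level of the P31 KO. The difference was 2.74 ± 0.68 (SE, limma adjusted p = 0.245) with it and 3.22 ± 0.59 (adjusted p = 0.0291) without it.

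Fam102b ranged from 296 to 508 CPM in P17 controls with a median of 347 and was 89.3, 282, 148, 229 and 344 in the P17 KO. P31 controls held 592, 762, 634, 588 and 490 CPM and P31 KO libraries 159, 150, 114, 134 and 97.4. P17 KO library 1 was below every P31 KO library, library 3 lay in the P31 KO range and library 5 in the P17 control range. The difference was -1.36 ± 0.36 (SE, limma adjusted p = 0.273) with that library and -1.64 ± 0.27 (adjusted p = 0.0131) without it.

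Serinc3, a membrane protein of the serine incorporator family and an abundant microglial transcript, ranged from 8570 to 11000 CPM in P17 controls with a median of 9080 and was 1020, 4980, 3350, 3730 and 1730 in the P17 KO. P31 controls held 9440, 8310, 8870, 9000 and 8680 CPM and P31 KO libraries 1130, 1010, 1010, 1330 and 1250. It was lower in the KO at both ages with no overlap, and P17 KO library 1 was at the P31 KO level. The difference was -1.06 ± 0.36 (SE, limma adjusted p = 0.395) with that library and -1.39 ± 0.24 (adjusted p = 0.0201) without it.

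Rsrc2, a nuclear protein with arginine and serine-rich stretches, ranged from 41.1 to 66.3 CPM in P17 controls with a median of 46.2, was 99.9, 55.8, 91.3, 61.2 and 63.8 in the P17 KO, 107, 71.4, 87.3, 76.1 and 109 across P31 controls and 53.3, 48.4, 40.9, 26.9 and 47.7 in the P31 KO. The genotypes overlapped at P17, and every P31 KO library lay below every P31 control. The difference was -1.59 ± 0.32 (SE, limma adjusted p = 0.0684) with all libraries and -1.47 ± 0.28 (adjusted p = 0.03) without P17 KO library 1.

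**Figure D4:**
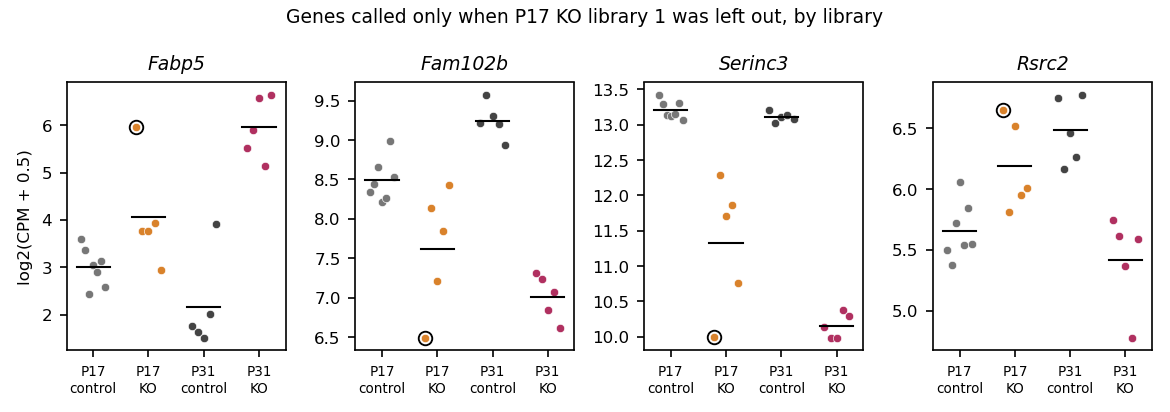
Level of the 4 genes called when P17 KO library 1 was left out, and not with all libraries, as log2(CPM + 0.5) in every library by group; points are libraries, bars are group means over all libraries and the ringed point is P17 KO library 1. For Fabp5 and Serinc3 the ringed library lies at the level of the P31 KO group, and for Fam102b below it.

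Among uncalled genes, Cxcl13, a B cell chemokine, came closest. P17 controls ranged from 0 to 1.0 CPM with a median of 0, P17 KO libraries held 0, 0.682, 2.33, 0.154 and 1.37, P31 controls 0 in each, and P31 KO libraries 34.5, 9.14, 7.07, 37.0 and 6.14. At P31 the KO was at least 257-fold higher, taking 3 reads per library as the floor, which covers counting error only. The difference on the fitted scale was 3.95 ± 0.77 (SE, limma adjusted p = 0.0589) and depends on the pseudocount, as the P31 controls were all at 0. Outside the P31 KO it reached at most 2.33 CPM. Cxcl13 thus met the filter on low values through the P31 KO, the group where it was high.

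BC018473, a non-coding gene, showed the reverse. It was 0 in every control of both ages, 8.96, 2.55, 18.7, 1.12 and 2.82 CPM in the P17 KO and 0, 0, 0, 0.0833 and 0 in the P31 KO. The KO at P17 was at least 67.1-fold higher by the same floor, no fold can be given at P31, and the difference did not pass (limma adjusted p = 0.0787). Only the P17 KO libraries reached 1 CPM, so BC018473 met the filter on low values through the group where it was high. It did not meet that filter once P17 KO library 1 was left out.

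Other genes lay on either side of equal effects without passing. Wdfy1, an endosomal protein, ranged from 7.2 to 47.8 CPM in P17 controls with a median of 18.9 and was 73.1, 74.1, 77.7, 112 and 90.9 in the P17 KO, whereas it was 44.8, 61.8, 49.3, 122 and 83.6 in P31 controls and 76.4, 40.4, 89.1, 67.5 and 64.3 in the P31 KO. The genotypes were apart at P17 and overlapped at P31, and the difference was -2.27 ± 0.55 (SE, limma adjusted p = 0.197). Marchf8, a membrane ubiquitin ligase, differed by 2.13 ± 0.47 (adjusted p = 0.148), Pla2g7, a secreted phospholipase, by 4.41 ± 1.06 (adjusted p = 0.197) and Sgtb, a cochaperone, by 4.69 ± 1.10 (adjusted p = 0.197). On the lower side were Fhit at -3.60 ± 0.84 (adjusted p = 0.197), Hpgds, a prostaglandin D synthase, at -1.10 ± 0.26 (adjusted p = 0.197), Ncf4, a subunit of the NADPH oxidase, at -1.16 ± 0.30 (adjusted p = 0.256), Utp25 at -2.41 ± 0.62 (adjusted p = 0.256), Xpa, a DNA damage sensor, at -2.15 ± 0.58 (adjusted p = 0.274) and Pear1, a cell surface receptor, at -3.0 ± 0.84 (adjusted p = 0.285).

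**Figure D5:**
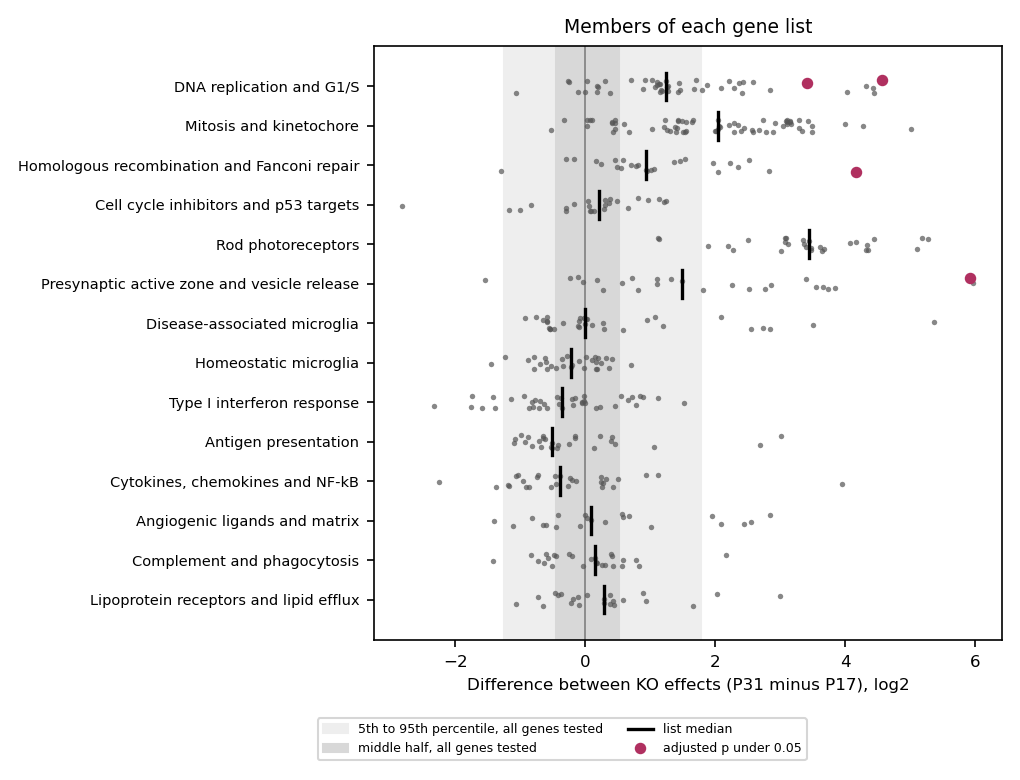
Difference between KO effects (P31 minus P17, log2) for every tested member of 14 gene lists; points are genes, red points have an adjusted p under 0.05, black bars are list medians and the grey bands show the spread of all genes tested. The medians of the replication, mitosis, rod and presynaptic lists are 1.24, 2.05, 3.44 and 1.49, and those of the homeostatic, disease-associated, interferon and antigen lists lie between -0.52 and -0.01.

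Genes of the disease-associated microglial state, which phagocytic microglia express, had a median difference of -0.01 over 32 tested, with 0 called. In the alternatives the median lay between -0.15, with upper-quartile scaling, and 0.17, with the deposited scaling. At an unadjusted p under 0.05, 7 were higher and 1 lower, beside 5.3% and 3.42% of all genes. Without P17 KO library 1 Fabp5 was called among 31 tested, and 8 were higher and 3 lower at an unadjusted p under 0.05, beside 5.2% and 4.33% of all genes. Lgals3, galectin-3, had 1.99 to 7.12 CPM in P17 controls with a median of 4.52, 1.54, 3.88, 0.932, 3.23 and 4.56 in the P17 KO, 6.12, 0, 5.79, 5.17 and 18.1 across P31 controls and 24.3, 24.8, 45.5, 29.2 and 55.1 in the P31 KO. The P31 KO libraries were above all others, with a difference of 3.5 ± 0.89 (SE, limma adjusted p = 0.249). Gpnmb, a lysosomal glycoprotein, was 19.4, 119, 174, 21.5 and 150 CPM in the P31 KO and 22, 0, 0.0452, 0 and 11.8 in P31 controls, a difference of 5.36 ± 1.46 (adjusted p = 0.274). Its P31 groups overlapped through control 1.

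Spp1, osteopontin, a secreted matrix protein, was higher in the KO at P31 and did not pass the test at P17. P17 controls ranged from 7.51 to 32.7 CPM with a median of 17.2, and P17 KO libraries held 54.0, 72.9, 50.7, 104 and 76.4. P31 controls held 0.195, 3.51, 16.5, 7.06 and 53.6, and P31 KO libraries 44.4, 242, 685, 126 and 373. The P17 groups did not overlap, while P31 control 5 lay above P31 KO library 1. The KO effect was 1.98 ± 0.72 (SE, limma adjusted p = 0.199) at P17 and 4.82 ± 0.77 (adjusted p = 0.000299) at P31, and the difference of 2.85 ± 1.05 did not pass (adjusted p = 0.441). Igf1, a growth factor, differed by 2.54 ± 0.72 (adjusted p = 0.293), and P31 control 5 held 28.4 CPM against 1.24 to 4.43 in the other P31 controls. Both are on the list of angiogenic ligands and matrix, of which 0 of 21 tested were called, with a median of 0.09.

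Homeostatic microglial genes had a median difference of -0.22 over 30 tested, with 0 called. In the alternatives the median lay between -0.37, with upper-quartile scaling, and -0.01, with the deposited scaling. At an unadjusted p under 0.05, 1 was higher and 2 lower, beside 5.3% and 3.42% of all genes. Without P17 KO library 1, 0 were higher and 10 lower at that level, beside 5.2% and 4.33% of all genes, and the median was -0.17. Siglech, a sialic acid receptor, had 1150 to 1620 CPM in P17 controls with a median of 1330, 3950, 1620, 1890, 1770 and 2000 in the P17 KO, 2100, 1800, 2130, 1990 and 2090 across P31 controls and 2000, 1790, 1810, 1760 and 1950 in the P31 KO. P17 KO library 1 was high in its group and the P31 groups overlapped, with a difference of -0.79 ± 0.25 (SE, limma adjusted p = 0.325), or -0.57 ± 0.12 (adjusted p = 0.0971) without that library. P2ry13, a purine receptor singled out after its values were seen, was 648, 2890, 3900, 3010 and 3410 CPM in the P17 KO and 2910, 2120, 2210, 2230 and 2150 in the P31 KO. Its difference was -0.28 ± 0.41 (adjusted p = 0.878) with P17 KO library 1 and -0.75 ± 0.16 (adjusted p = 0.0897) without it.

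Interferon and antigen presentation genes gave no called difference, with 0 of 39 and 0 of 27. Their medians of -0.36 and -0.52 were -0.13 and -0.29 without P17 KO library 1, and the interferon median was 0.17 when libraries were weighted by their spread. Ifi204, a cytosolic DNA sensor of a family of near-identical genes whose reads may be shared, had 12.9 to 53.4 CPM in P17 controls with a median of 23.5, 3.3, 11.5, 2.45, 1.19 and 9.42 in the P17 KO, 82.3, 80.1, 58.3, 53.7 and 32.4 across P31 controls and 3.76, 7.42, 3.16, 0.305 and 0 in the P31 KO. It was lower in the KO at both ages with no overlap, and the difference of -2.33 ± 0.87 (SE) did not pass (limma adjusted p = 0.449). H2-M3, a nonclassical class I molecule, differed by -1.10 ± 0.38 (adjusted p = 0.406) and H2-Eb1, a class II chain, by 3.0 ± 1.12 (adjusted p = 0.449). Of 29 cytokine, chemokine and NF-kB genes 0 were called, with a median of -0.39, among them Ccl5 at -2.25 ± 0.94 (adjusted p = 0.512) and the inflammasome sensor Nlrp3 at -1.06 ± 0.47 (adjusted p = 0.539).

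The KO effect was called at both ages for 6 further genes, singled out after their values were seen, with no called difference between ages. Slc1a3, a glutamate transporter, ranged from 40.0 to 97.0 CPM in P17 controls with a median of 53.2 and was 860, 1690, 1790, 2880 and 1820 in the P17 KO. It was 59.9, 71.9, 85.3, 94.6 and 70.6 in P31 controls and 2260, 2030, 2030, 1910 and 1570 in the P31 KO, far above controls at both ages. Its difference was -0.10 with a 95% interval of -0.84 to 0.65, so a change of the effect by 1 log2 unit lay outside the interval. Ccr6, a chemokine receptor, had a difference of 0.50 (interval -1.19 to 2.19), Angptl7, a secreted glycoprotein, of 0.67 (-1.13 to 2.46), Mrc2, a collagen receptor, of -0.73 (-2.22 to 0.76) and Slc2a5, a fructose transporter, of -1.24 (-3.69 to 1.21), so for these 4 a 2-fold change of the effect lay inside the interval.

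Clec7a, the beta-glucan receptor dectin-1, was lower in the KO at both ages with an effect nearer 0 at P31. P17 controls ranged from 82.7 to 180 CPM with a median of 129, P17 KO libraries held 5.07, 5.81, 3.46, 11.1 and 16.2, P31 controls 232, 256, 179, 231 and 219, and P31 KO libraries 30.8, 21.3, 24.4, 47.8 and 31.8. The genotypes did not overlap at either age, and the P31 KO libraries were all above the P17 KO libraries. The KO effect was -4.06 ± 0.29 (SE) at P17 and -2.87 ± 0.32 at P31, and the difference of 1.20 ± 0.43 did not pass (limma adjusted p = 0.425, unadjusted p = 0.0107).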

How the data were processed

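RNA of sorted retinal microglia was sequenced in 22 libraries. Per the submitters' processing notes, the authors used FastQC 0.72, STAR 2.7.5b, featureCounts, R 3.5.3 and DESeq2 1.22.2 with mm10, while annotation and strand setting were not given in the sources read. The deposited values are a normalised signal, read counts divided by size factors, beside log2 fold changes and adjusted p-values of 4 contrasts that the authors deposited and that were not used. All 349420 of 349420 nonzero values came out as whole reads within 1e-06.

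Those reads were scaled by TMM (edgeR 4.0.16) and tested with limma 3.58.1 (mean-variance trend, robust) in R 4.3.3 on log2(CPM + 0.5), with 4 group means, for genes with at least 1 CPM in at least 5 libraries. P-values were Benjamini-Hochberg adjusted over all genes tested, with a threshold of 0.05. Fits in edgeR, DESeq2 1.42.0 and voom, other scalings, pseudocounts, filters, covariates, and fits leaving out libraries were alternatives. The fits were tested on simulated data. Positions are GENCODE vM21 on mm10, and promoters are RefSeq GRCm38.p6.

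Named genes were the called genes, up to 12 per direction by size at a mean of at least 5 CPM in a group, filled with uncalled genes of smallest p, with up to 6 per direction called without P17 KO library 1, up to 4 members of each list by p, and genes said to be singled out. The members and lists were chosen with earlier results of these data known. Replicate numbers were not used as pairs in the main fit: 1 of 30 same-numbered pairs correlated above 0.1. Whether libraries of the same number shared a batch was not tested. No 2 libraries of a group agreed within sampling noise, the lowest chi-square per degree of freedom over 51 pairs being 60. Results for some genes are not reported here.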

Additional observations from a re-analysis of the deposited data

Results flagged for a closer look

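The KO effect differed between the ages in the limma test for Mcm6 by 3.41, Dtl by 4.57, Brca1 by 4.16, Rims2 by 5.91 and Ets1 by -4.89 on the log2 scale, and these are the 5 results described above.

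Of 92 groups of libraries checked, 12 held 1 library far from the others, where a rate of 1 in 20 would give about 4.6. That rate does not hold where all other libraries of a group are at 0, since any nonzero library then stands out. The 12 are therefore no measure of an excess over chance. In the P31 controls Dtl was 4.25 CPM in library 3 against 0 to 0.0288 in the others, Brca1 0.668 in library 1 against 0 to 0.0249, Rims2 0.445 in library 1 against 0, and Fabp5 14.5 in library 5 against 2.33 to 3.51. Ets1 was 7.84 CPM in P31 KO library 1 against 0.379 to 0.945. Brca1 was 1.75 CPM in P17 control 6 and 0.889 in P17 KO library 2, each against 0 in the rest of its group.

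Among mean list levels on the log2(CPM + 0.5) scale, P17 KO library 1 was high for the disease-associated list (7.82 against 7.52 to 7.61) and for the interferon list (3.63 against 2.15 to 2.55). P17 control 1 was low for the repair list at 0.82 against 1.12 to 1.31. P31 control 1 was high for the presynaptic list at 2.65 against 1.09 to 1.34, and P31 KO library 5 was low for complement and phagocytosis at 8.48 against 8.71 to 8.76.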

How the results depend on the processing

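The count of 5 genes was 10 with library weights and 9 with the Y-linked covariate, 3 in edgeR (1128 at an unadjusted p under 0.05), 3 at a pseudocount of 0.1 CPM, 3 with the filter at 5 CPM, 3 with the replicate number as a block, 2 in voom, 2 without P17 controls 1, 3 and 4, 1 with the rod covariate and 176 in DESeq2, which shared 3 of the 5. It was 4 to 9 when 1 library was left out, being 9 without P17 KO library 1 and 8 without P31 control 3. The count of 9 without P17 KO library 1 was 226 in DESeq2, 15 at a pseudocount of 2 CPM, 4 with the replicate block, 3 in voom, 3 with no filter, 3 with the rod covariate and 2 without P17 controls 1, 3 and 4. It was 3 to 15 with 1 more library left out: 15 without P31 KO 1, 14 without P31 control 3, 4 without P17 KO 3 or P31 KO 3 and 3 without P17 KO 4. The KO effect at P31 was called for 320 to 915 genes when 1 library was left out, 915 of them without P17 KO library 1, and at P17 for 144 to 227. The cause of these changes was not tested.

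Mcm6 was called in 16 of 16 alternatives and 22 of 22 fits leaving out 1 library, Ets1 in 14 and 22 (not in voom, at -5.71 with adjusted p = 0.0941, or with the rod covariate, at -4.28 with adjusted p = 0.055), Rims2 in 13 and 22, Brca1 in 8 and 22, and Dtl in 6 and 8. The uncalled difference of Ccr6 turned to -0.27 in edgeR, -0.44 in DESeq2 and -0.66 in voom, and that of Slc1a3 to 0.11 with the deposited scaling, 0.02 with the block and 0.09 without P17 KO 4, with a range of -0.33 to 0.09 when 1 library was left out. Deposited scaling moved the median difference of all genes by 0.18 and upper-quartile scaling by -0.14.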

Other observations

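Lists not described above had 0 members with a called difference in limma, with and without P17 KO library 1. Glycolysis and HIF target genes, which serve sugar use and low oxygen, had a median difference of 0.37 over 25 tested, or 0.17 without that library. Complement and phagocytosis genes had a median of 0.15 over 27, or -0.13, and lipoprotein receptor and lipid efflux genes one of 0.29 over 23, or -0.03. Cholesterol synthesis genes had a median of -0.19 over 23, or -0.26, and immediate early and heat shock genes one of -0.03 over 23, or -0.35 over 22. All 8 tested genes of the mitochondrial genome lay above 0, beside 49.8% of all genes, with a median of 0.26. At an unadjusted p under 0.05, 1 was higher, beside 5.3% of all genes. Without P17 KO library 1 it was 6, beside 5.2% of all genes, and the median was 0.77.

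Markers of other cell types differed in level between groups. Genes of Mueller glia and astrocytes, the supporting glia of the retina, summed to 6480 to 17100 CPM in P17 controls, 21000 to 83700 in the P17 KO, 906 to 2820 in P31 controls and 4360 to 6780 in the P31 KO, with a median difference of 0.40 over 19 genes. The sums do not show the typical member: the median KO effect of these genes was -1.01 at P17 and 0.07 at P31, and their mean level on the log2(CPM + 0.5) scale was 4.10 ± 0.87 (SD, n = 7) in P17 controls and 3.62 ± 0.63 (SD, n = 5) in the P17 KO. Slc1a3, described above, is on this list, and so is Apoe, which is also on the disease-associated microglial list. Endothelial and pericyte genes summed to at most 73.5 CPM in any library. Markers of monocytes, neutrophils and lymphocytes summed to 451 to 924 CPM over all libraries, and those of border-associated macrophages to 186 to 463.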
